A study of Homo sapiens with 9 samples.

Results

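Loss of the first enzyme of the polyol pathway was compared with loss of the second in A549 cells, an established line from a human lung adenocarcinoma. The comparison took all 3 libraries labelled shAKR1B1 against all 3 labelled shSORD, 6 of the 9 libraries of the series, and ran over the 16916 of 57905 gene IDs that passed an expression filter. All cells were grown in medium with 5% serum. shAKR1B1 and shSORD cells received a short hairpin RNA (shRNA, which directs the degradation of a matching transcript) against AKR1B1 or SORD, and the 3 control libraries are titled plko and labelled as scrambled controls. The 2 names differ, since plko is a vector name, and do not settle what hairpin, if any, the control cells expressed. The labels name 1 hairpin treatment per target, so the effects of a single hairpin sequence cannot be told apart from those of losing its target. The series calls the libraries of a group biological replicates, but no source used here says whether they were separate transductions. The p-values therefore rest on the spread among these 9 libraries, and that spread may be technical.

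The polyol pathway makes fructose from glucose with sorbitol as its intermediate. Aldose reductase, encoded by AKR1B1, reduces glucose to sorbitol with NADPH, and sorbitol dehydrogenase, encoded by SORD, oxidises sorbitol to fructose with NAD+. Loss of the first enzyme is thus known to stop sorbitol from being made from glucose, whereas loss of the second lets sorbitol accumulate. Aldose reductase also reduces lipid aldehydes and their glutathione conjugates, a role that sorbitol dehydrogenase does not share.

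Libraries held 32436524 to 43044456 counted reads. Levels are given as CPM, the reads of a gene per 1000000 counted reads after scaling between libraries, and replicates 1, 2 and 3 are listed in that order. On the first principal component of the 6 knockdown libraries, with 63.6% of their variance, shAKR1B1 (-33.7 to -29.1) stood apart from shSORD (26.6 to 36.8). The second component, with 13.5%, spread the shSORD libraries (-21.5, -0.945 and 25.3). The shSORD group was the least uniform, with a median within-group standard deviation (SD) of log2 CPM of 0.148, against 0.0833 with shAKR1B1 and 0.0716 in the control.

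Each enzyme was lowest in the cells with the hairpin against it. AKR1B1 (ENSG00000085662) stood at 146, 148 and 167 CPM with shAKR1B1, at 945, 1109 and 1135 CPM with shSORD and at 1456, 1395 and 1397 CPM in the control. The 3 groups did not overlap, with shAKR1B1 lowest and the control highest. Between the knockdowns AKR1B1 was 6.91-fold lower with shAKR1B1 (log2 difference -2.79, SE 0.0742, edgeR adjusted p = 4.74e-12). SORD (ENSG00000140263) was the scarcer transcript in CPM. It stood at 30.4, 30.2 and 31.02 CPM with shAKR1B1, at 8.68, 8.997 and 8.18 CPM with shSORD and at 44.1, 43.04 and 41.7 CPM in the control. Here shSORD was lowest and the control again highest, so that the AKR1B1 hairpin group also had less SORD than the control (log2 difference -0.49, adjusted p = 6.43e-06) and the SORD hairpin group less AKR1B1 (log2 difference -0.41, adjusted p = 0.000131). SORD was 3.54-fold higher with shAKR1B1 than with shSORD (log2 difference 1.83, SE 0.0668, adjusted p = 8.67e-11).

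AKR1B10, the aldo-keto reductase closest to aldose reductase and a reductase of retinal, was far more abundant in CPM. With shSORD both genes were below the control, but between the knockdowns AKR1B10 differed in the opposite direction to AKR1B1. It stood at 6872, 6826 and 6586 CPM with shAKR1B1, 4402, 4233 and 4430.3 CPM with shSORD and 4929, 4989.6 and 4922 CPM in the control. All shAKR1B1 libraries lay above and all shSORD libraries below the control, and the knockdowns differed by 1.55-fold (log2 difference 0.63, SE 0.043, adjusted p = 4.24e-08). The near-identical AKR1B15 had the same order (151, 155 and 153 CPM, 111, 113 and 104 CPM and 131, 121 and 119.9 CPM), but reads of this pair may be shared by the counting. Of the 13 measured genes of polyol and fructose metabolism, 6 were higher and 3 lower with shAKR1B1 than with shSORD at an adjusted p under 0.05. That is 69.2%, against 30.7% of all tested genes (15.5% higher and 15.1% lower), and it includes the hairpin targets AKR1B1 and SORD. Beside AKR1B1, the lower ones were the glucose transporter SLC2A1 (146 ± 9.93 against 256 ± 17.7 CPM, SD, n = 3) and the urate and hexose transporter SLC2A9 (1.11 ± 0.169 against 2.59 ± 0.542 CPM). Ketohexokinase (KHK), which phosphorylates fructose, was at 16.9, 18.2 and 17.8 CPM with shAKR1B1 and 19.04, 21.6 and 17.1 CPM with shSORD (log2 difference -0.12, SE 0.0854, adjusted p = 0.306), but it was called lower without shSORD replicate 3 (-0.20, adjusted p = 0.0446).

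Across all genes, 2628 were higher (15.5% of the 16916 tested) and 2558 lower (15.1%) with shAKR1B1 than with shSORD at an adjusted p under 0.05, which is called a difference here. In all, 5186 genes (30.7%) were called, and in 4915 of these the 6 libraries did not overlap. Counts of list members below are to be read beside these 15.5%, 15.1% and 30.7%. Over all tested genes, 40.1% had knockdown libraries that did not overlap. Differences of at least 2-fold were found for 878 genes (5.19%), 418 of them higher (2.47%) and 460 lower (2.72%) with shAKR1B1. The median absolute log2 difference between the knockdowns was 0.184, while each knockdown lay farther from the control (0.325 for shAKR1B1 and 0.319 for shSORD). Protein-coding genes were called in 34.3% of 13429 cases, non-coding RNA genes other than pseudogenes in 18.2% of 2203 and pseudogenes in 10.8% of 815.

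**Figure D1:**
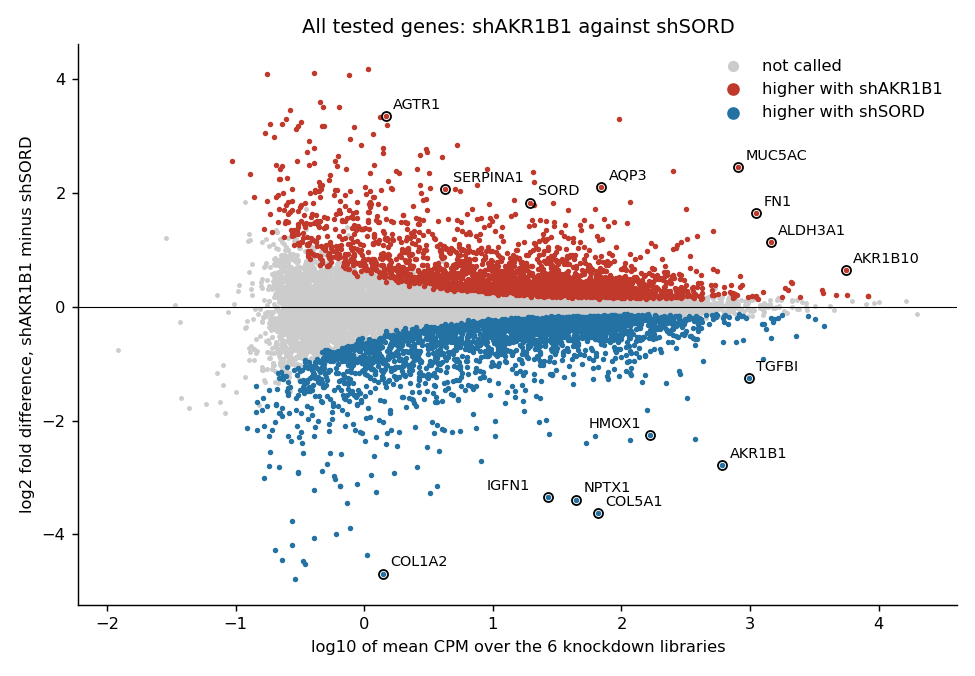
Each point is 1 of the 16916 tested genes, placed by the log10 of its mean CPM over the 6 knockdown libraries and by its log2 fold difference, shAKR1B1 minus shSORD. Red and blue points are the 2628 genes called higher and the 2558 called lower with shAKR1B1, grey points are not called, and open circles mark named genes such as COL5A1 at -3.63 and MUC5AC at 2.45.

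Among protein-coding genes with at least 50 counts per library on average and no overlap between the knockdowns, the 12 largest differences in either direction are drawn on here, and COL1A2, the largest of those lower with shAKR1B1, is described with the collagens. The collagen chain COL5A1, which nucleates fibrils of type I collagen, was at 9.40, 10.4 and 9.65 CPM with shAKR1B1 and 104, 142 and 118 CPM with shSORD, beside 98.7, 95.7 and 107 CPM in the control. The shAKR1B1 libraries were about level with each other and far below both other groups, and the difference was 12.4-fold (log2 -3.63, SE 0.106, adjusted p = 1.15e-11). NPTX1, a neuronal pentraxin secreted at synapses, was at 6.55, 8.02 and 8.65 CPM against 62.5, 89.7 and 92.5 CPM (10.5-fold, SE 0.138 on the log2 scale, adjusted p = 3.06e-10). SPOCK1, a secreted proteoglycan, was 9.70-fold lower (0.620 ± 0.205 against 5.89 ± 1.39 CPM, adjusted p = 2.78e-08). DOCK2, an activator of the GTPase Rac known from leukocytes, was 8.90-fold lower (0.726 ± 0.154 against 6.58 ± 1.26 CPM). Receptors, enzymes and channels were also in this set. The natriuretic peptide receptor NPR1 was 7.60-fold lower, DIO2, which activates thyroid hormone, 7.06-fold, the calcium-activated potassium channel KCNMA1 6.55-fold and COL20A1 5.54-fold (all adjusted p at or below 4.15e-07). BMPER, a secreted regulator of bone morphogenetic proteins, was at 0.888, 0.370 and 0.464 CPM against 3.16, 3.12 and 2.83 CPM.

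On the other side, the genes with the largest differences higher with shAKR1B1 were mostly scarce. The angiotensin II receptor AGTR1 was at 2.70, 2.91 and 2.44 CPM with shAKR1B1, 0.388, 0.171 and 0.226 CPM with shSORD and 0.442, 0.451 and 0.407 CPM in the control (10.2-fold between the knockdowns, log2 SE 0.23, adjusted p = 4.71e-08). ADH1C, an alcohol dehydrogenase of liver, was at 2.57, 2.27 and 2.34 CPM against 0.311, 0.171 and 0.226 CPM (10.1-fold, adjusted p = 3.72e-08). Both sets of shAKR1B1 libraries lay above every other library. SLC28A2, a sodium-coupled nucleoside transporter, was 9.11-fold higher, the secreted airway protein BPIFB1 6.79-fold, the actin-severing protein SCIN 6.58-fold and the cystatin CST1 6.37-fold (all adjusted p at or below 1.27e-06). The secreted neurotrophic factor NDNF was 6.88-fold, the endosomal lipid-binding protein CLVS1 7.15-fold and the phospholipase family member PLCXD3 6.20-fold higher. One gene ID without a symbol in the tables used, ENSG00000090920, was chosen after its values were seen. It was at 179.8, 178 and 160.2 CPM with shAKR1B1, 24.7, 14.99 and 12.97 CPM with shSORD and 31.2, 27.2 and 30.1 CPM in the control.

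Collagen chains, the building blocks of fibrils and basement membranes, were mostly lower with shAKR1B1. Of 27 measured chains 21 were lower and 1 higher with shAKR1B1, 10 of them at least 2-fold lower, with a median log2 difference of -0.82 against 0.01 over all tested genes. COL1A1, a chain of fibrillar type I collagen, stood at 8.97, 9.57 and 8.21 CPM with shAKR1B1, 31.7, 46.01 and 31.4 CPM with shSORD and 15.02, 14.1 and 15.9 CPM in the control. The groups did not overlap, with the control between the knockdowns (4.08-fold lower with shAKR1B1, log2 SE 0.131, adjusted p = 2.64e-08). Its partner chain COL1A2 was scarce and uneven, at 0.0306, 0.173 and 0.0928 CPM with shAKR1B1 and 1.11, 5.29 and 1.76 CPM with shSORD. Its log2 difference of -4.69 (SE 0.686, adjusted p = 9.95e-05) became -3.76 without shSORD replicate 2, the library with the highest value. The basement membrane chain COL4A1 was lower with both hairpins than in the control and lowest with shAKR1B1 (57.4 ± 2.53, 134 ± 16.1 and 209 ± 8.33 CPM for shAKR1B1, shSORD and control). COL21A1 was the chain called in the other direction, at 1.35, 1.38 and 0.951 CPM with shAKR1B1 and 0.311, 0.195 and 0.176 CPM with shSORD. It lay under the control (2.82, 2.65 and 2.29 CPM) in both knockdowns. Against the control, 7 chains rose and 15 fell with shAKR1B1 (27.8% and 29.6% of all tested genes), while 16 rose and 5 fell with shSORD (27.5% and 29%). Both knockdowns were set against the same 3 control libraries.

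Matrix proteases, their inhibitors and adhesion proteins also differed. Of 30 matrix proteases and inhibitors 15 were lower and 3 higher with shAKR1B1. That is 60% called, against 30.7% of all tested genes, with a median log2 difference of -0.27. The gelatinase MMP2 was at 0.337, 0.247 and 0.650 CPM against 1.53, 1.97 and 1.43 CPM, both under the control (7.21, 7.16 and 7.25 CPM). PLAT, the tissue plasminogen activator, was 3.18-fold lower (1.75 ± 0.0868 against 5.58 ± 0.330 CPM, adjusted p = 5.05e-08), with the control between the knockdowns at 4.64 ± 0.287 CPM. The protease inhibitors TIMP2 and TIMP3 also had the control between the knockdowns (135 ± 7.66, 225 ± 7.22 and 204 ± 4.26 CPM for TIMP2 with shAKR1B1, shSORD and control, and 0.106 ± 0.0654, 0.840 ± 0.256 and 0.354 ± 0.0464 CPM for TIMP3). Among 29 laminins and integrins 9 were lower and 5 higher (48.3% called, median -0.10). The laminin chain LAMA3, a part of laminin-332 in epithelial basement membranes, was at 21.3 ± 0.986, 50.004 ± 1.65 and 87.2 ± 1.37 CPM with shAKR1B1, shSORD and control. Fibronectin (FN1), a matrix glycoprotein that cells also bind through integrins, went the other way and strongly. It stood at 1765, 1722 and 1584 CPM with shAKR1B1, 642, 500.4 and 477 CPM with shSORD and 1212, 1227 and 1231 CPM in the control, with no overlap between groups and the control in the middle (3.13-fold, log2 1.65, SE 0.0874, adjusted p = 3.93e-09).

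TGF-beta is a secreted growth factor that acts through SMAD proteins and induces matrix genes and its own inhibitors. Of 34 measured target genes 22 were lower and 4 higher with shAKR1B1 than with shSORD (median log2 difference -0.55), and 7 of the lower ones had shSORD above and shAKR1B1 below the control (1.08% of all tested genes). PMEPA1, a membrane protein that holds back SMAD signalling, was at 34.6, 40.7 and 40.9 CPM against 179, 209.6 and 198 CPM and fell with both hairpins from 309 ± 0.916 CPM (5.04-fold between the knockdowns, log2 -2.33, SE 0.0733, adjusted p = 1.49e-11). No groups overlapped, with shAKR1B1 lowest and the control highest. The cytokine IL11 had the same order at 4.11 ± 0.0802, 16.5 ± 1.32 and 38.7 ± 1.07 CPM. TGFBI, a secreted matrix protein, was at 562, 583 and 587 CPM with shAKR1B1 and 1263, 1459 and 1406 CPM with shSORD, and shSORD overlapped the control (1421, 1438 and 1434 CPM). The inhibitory SMAD7 was 1.80-fold lower with shAKR1B1 (adjusted p = 2.07e-06).

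The pathway's upstream parts went in both directions. Of 28 ligands, latent binding proteins, receptors and SMADs 9 were lower and 5 higher with shAKR1B1 (50% called, against 30.7% of all tested genes, median -0.012). The ligand TGFB1 was at 44.7, 49.3 and 46.1 CPM with shAKR1B1 and 46.9, 55.4 and 42.5 CPM with shSORD. These libraries overlapped, the test found no difference (log2 -0.047, SE 0.0819, adjusted p = 0.708), and both groups lay under the control (115 ± 3.94 CPM). TGFB2 was at 27.5, 25.3 and 32.6 CPM against 46.4, 40.5 and 59.8 CPM and lower with shAKR1B1 (log2 -0.78, adjusted p = 0.000148). The binding proteins LTBP1 and LTBP2, which hold latent TGF-beta in the matrix, were 2.13-fold and 2.26-fold lower with shAKR1B1. LTBP1 was nevertheless above the control in both knockdowns (56.1 ± 1.49, 119 ± 9.69 and 34.2 ± 1.16 CPM).

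**Figure D2:**
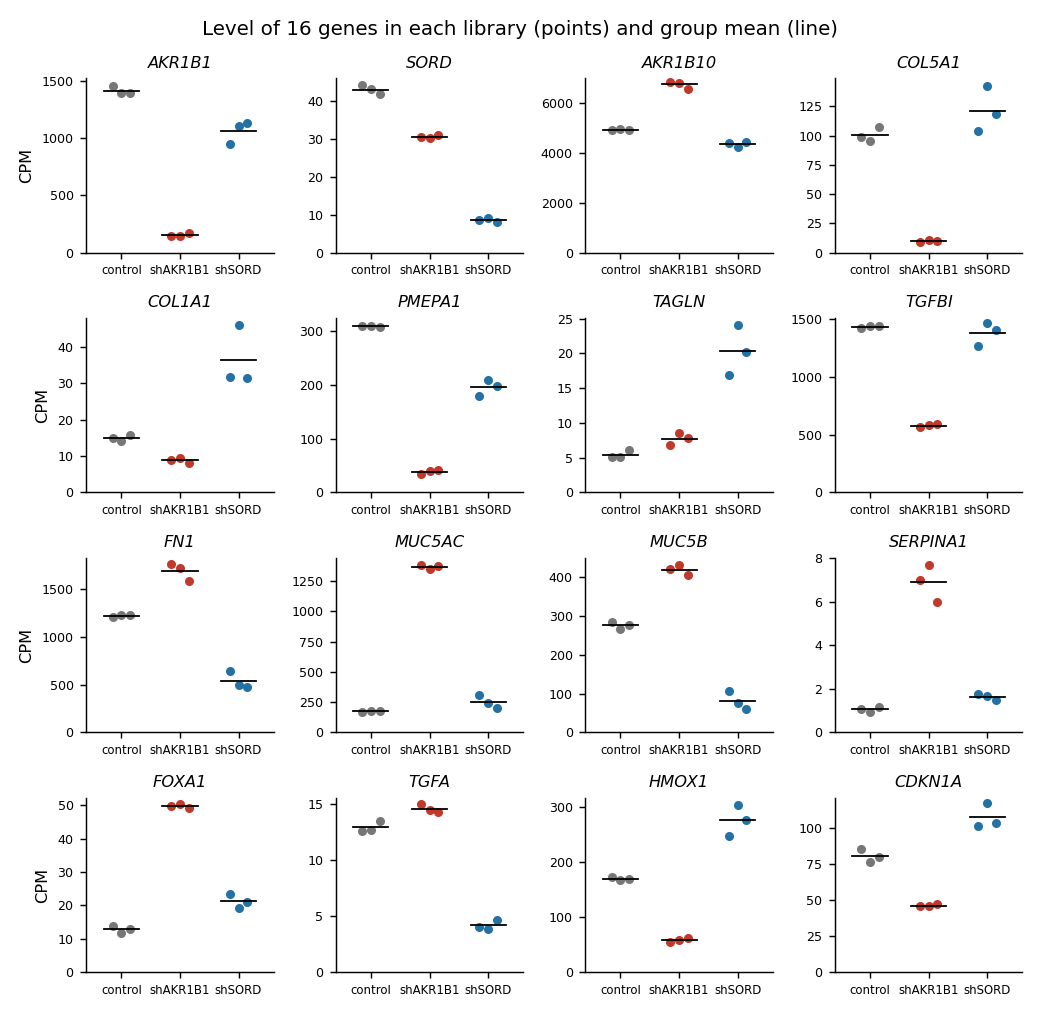
Each panel gives 1 gene on its own linear CPM axis from 0, with 3 points per group for the 3 libraries of the control (grey), shAKR1B1 (red) and shSORD (blue) and a line at the group mean. COL1A1, HMOX1 and CDKN1A have the control between a low shAKR1B1 and a high shSORD group, and FN1 and MUC5B have the reverse order.

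Genes of the contractile cytoskeleton, many of them known targets of serum response factor (SRF), were lower with shAKR1B1 in 18 of 25 cases and higher in 1 (median log2 difference -0.49). SRF binds the CArG box, CC and GG pairs around a stretch of A and T. Promoters from RefSeq (GRCh38.p14) were searched on both strands over the 250 bases before each gene's start. A CArG box was found in 11 of 26 genes of the list that had a promoter entry (42.3%) and in 394 of 27305 genes with one (1.44%). The list was drawn up from known SRF targets, so this share is no independent evidence, and a match describes the sequence without showing binding. The stretches of 6 members that were called lower with shAKR1B1 are printed because they carry this box, in 5′ to 3′ direction of the gene with the box in capitals. They lie at chrX:154374694-154374753 (minus strand, FLNA), chr16:31473129-31473188 (plus, TGFB1I1), chr19:1026494-1026553 (plus, CNN2), chr14:68977703-68977762 (minus, ACTN1), chr19:16067340-16067399 (plus, TPM4) and chr2:105438580-105438639 (minus, FHL2), upstream of the start of the gene.
FLNA: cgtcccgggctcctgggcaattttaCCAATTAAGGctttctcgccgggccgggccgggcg
TGFB1I1: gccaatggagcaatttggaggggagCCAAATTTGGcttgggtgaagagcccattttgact
CNN2: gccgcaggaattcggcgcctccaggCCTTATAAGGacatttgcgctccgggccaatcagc
ACTN1: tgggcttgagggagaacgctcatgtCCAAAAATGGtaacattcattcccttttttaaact
TPM4: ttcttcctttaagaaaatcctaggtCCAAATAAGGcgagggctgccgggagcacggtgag
FHL2: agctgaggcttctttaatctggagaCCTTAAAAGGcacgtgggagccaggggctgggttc

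FLNA, the actin cross-linker filamin A, was the most abundant of these 6 in CPM, at 1768, 1897 and 1968 CPM with shAKR1B1, 2498, 3005 and 2587 CPM with shSORD and 2823, 2718 and 2885 CPM in the control. The shAKR1B1 libraries lay below all others, and shSORD overlapped the control (log2 difference -0.52, SE 0.0654, adjusted p = 2.24e-05). TGFB1I1 (Hic-5), a focal adhesion protein, was at 15.1, 15.8 and 14.9 CPM against 29.5, 35.2 and 29.1 CPM with the control between (18.5 ± 1.19 CPM, 2.05-fold between the knockdowns, adjusted p = 2.66e-07). Calponin CNN2 was lower by 1.43-fold and tropomyosin TPM4 by 1.21-fold. Alpha-actinin ACTN1 and the LIM protein FHL2 each differed by 1.17-fold (adjusted p = 0.0048 and 0.0299). The FHL2 call was lost without control replicate 3, shAKR1B1 replicate 1 or 2 or shSORD replicate 3 (log2 -0.23 to -0.17, adjusted p up to 0.149). It was also lost when only the 6 knockdown libraries were fitted (adjusted p = 0.0635). TAGLN and ACTA2 rose with both hairpins against the control. TAGLN, an actin-binding protein of smooth muscle, was at 6.80, 8.51 and 7.77 CPM with shAKR1B1, 16.9, 24.1 and 20.2 CPM with shSORD and 5.14, 5.06 and 6.13 CPM in the control (2.64-fold between the knockdowns, adjusted p = 6.81e-07). Smooth muscle actin ACTA2 was at 7.52 ± 0.470, 14.9 ± 2.70 and 6.003 ± 0.337 CPM. The smooth muscle calponin CNN1 was below the filter, with 5, 5 and 7 counts in the control, 0, 2 and 0 with shAKR1B1 and 8, 16 and 5 with shSORD. Vinculin (VCL), which couples adhesions to actin, was 2.18-fold lower (175 ± 2.29 against 383 ± 32.7 CPM), with the control at 327 ± 7.60 CPM. Of 25 targets of the mechanosensitive co-activators YAP and TAZ 13 were lower and 4 higher (68% called, against 30.7% of all genes, median -0.22). CCN1 was among the lower (18.8 ± 0.944 against 27.7 ± 4.92 CPM) and CCN2 among the higher (21.3 ± 1.15 against 14.97 ± 0.576 CPM).

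Of 35 measured mesenchymal genes and factors of epithelial-mesenchymal transition 19 were lower and 6 higher with shAKR1B1 (median log2 difference -0.58). N-cadherin (CDH2), an adhesion molecule of mesenchymal cells, was at 7.93, 8.46 and 8.35 CPM with shAKR1B1, 24.6, 26.2 and 27.7 CPM with shSORD and 17.01, 17.8 and 18.4 CPM in the control. The groups did not overlap and the control lay between (3.17-fold, log2 SE 0.0739, adjusted p = 7e-10). Vimentin (VIM), the intermediate filament of mesenchymal cells, had the same sign but a small size (1101 ± 20.8 against 1357 ± 25.7 CPM, 1.23-fold, adjusted p = 8.47e-05). SPARC and TNC, matricellular proteins, were low in both knockdowns, at 0.330 ± 0.0464 and 0.333 ± 0.0723 CPM with shAKR1B1, 1.69 ± 0.695 and 1.51 ± 0.766 CPM with shSORD, against 10.4 ± 0.229 and 3.14 ± 0.220 CPM in the control. The receptor tyrosine kinase AXL was at 107, 109 and 119 CPM against 148, 175 and 180.1 CPM, with the control between at 139.7 ± 1.96 CPM (adjusted p = 1.46e-05). The repressor ZEB1 was at 27.1, 24.4 and 25.7 CPM against 25.7, 23.7 and 29.1 CPM (log2 -0.024, SE 0.0783, adjusted p = 0.847). These ZEB1 libraries overlapped and no difference was called. DLC1, a GTPase-activating protein of the cytoskeleton, had a log2 difference of -2.01 that became -2.70 without shAKR1B1 replicate 2.

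Several of these genes are also markers of fibroblasts, and most of the markers measured differed in this comparison. The summed level of 14 fibroblast markers was 66.0 to 67.2 CPM with shAKR1B1, 99.0 to 126.4 CPM with shSORD (highest in replicate 2) and 92.2 to 98.1 CPM in the control. Most of this sum was FBLN1, a matrix glycoprotein (56.5 ± 1.18, 64.95 ± 3.55 and 77.8 ± 3.26 CPM with shAKR1B1, shSORD and control). Of the 9 that passed the filter 8 were lower with shAKR1B1 than with shSORD and 0 higher, but the FBLN1 call was lost without shAKR1B1 replicate 1 or 2 or shSORD replicate 1 (log2 -0.20 to -0.19). Against the control 7 of the 9 rose and 1 fell with shSORD (median log2 difference 3.06), and 2 rose and 3 fell with shAKR1B1 (-0.75). The other 5 (DCN, PDGFRA, FAP, DPT and PRRX1) had 0 to 11 counts per library. All libraries are of the A549 line, and a part of fibroblasts in the matrix and mesenchymal differences was not tested. In RNA from a whole culture fewer cells of a type and less RNA per cell cannot be told apart. The summed markers of endothelial cells (31.5 to 33.5, 29.8 to 42.1 and 37.0 to 42.6 CPM with shAKR1B1, shSORD and control) had CLDN5 at 0 in all libraries and CDH5, VWF and TEK at 0 to 6 counts. Of the 2 that passed the filter ESAM was called (log2 difference -1.05), with shAKR1B1 below and shSORD above the control. The summed markers of leukocytes (9.70 to 11.5, 9.71 to 11.7 and 11.1 to 12.3 CPM) had CD3E, CD3D and MS4A1 at 0. All 3 that passed the filter were called, 2 higher and 1 lower with shAKR1B1. On average CD14 fell with both hairpins (4.96, 3.39 and 8.81 CPM with shAKR1B1, shSORD and control) and ITGAM rose with both (4.90, 6.64 and 2.68 CPM). The ITGAM call was lost without shAKR1B1 replicate 3. The 12 markers of A549 and airway epithelium were present throughout, at 36387 to 37541 CPM with shAKR1B1, 30123 to 31859 CPM with shSORD and 27930 to 28393 CPM in the control.

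Several groups of stress response genes had more members lower than higher with shAKR1B1. The transcription factor p53 induces cell cycle inhibitors, death receptors and repair genes. Among 27 of its targets 19 were lower and 3 higher (81.5% called, against 30.7% of all tested genes, median log2 difference -0.35). CDKN1A, the cell cycle inhibitor p21, was at 45.7, 45.5 and 47.02 CPM with shAKR1B1, 101, 117 and 104 CPM with shSORD and 85.1, 76.5 and 79.8 CPM in the control. The groups did not overlap, with the control between (2.32-fold, log2 SE 0.0659, adjusted p = 4.93e-09). The death receptor FAS had the same order (11.002 ± 0.261, 20.9 ± 4.62 and 13.7 ± 0.195 CPM). Cyclin G1 (CCNG1) had the reverse order (105 ± 6.12, 54.6 ± 11.3 and 70.4 ± 3.44 CPM, adjusted p = 9.94e-06 between the knockdowns). MDM2, the p53 antagonist that p53 itself induces, was at 58.4 ± 2.14 and 62.03 ± 9.08 CPM and was not called (log2 -0.087, SE 0.0845, adjusted p = 0.471), though it was called lower without shSORD replicate 2 (-0.20, adjusted p = 0.0169).

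HMOX1, the haem-degrading enzyme heme oxygenase 1, is a target of NRF2, the regulator of antioxidant genes. It was at 54.7, 58.3 and 61.3 CPM with shAKR1B1, 248, 305 and 277 CPM with shSORD and 173, 168 and 169.6 CPM in the control. The shAKR1B1 libraries were lowest and the shSORD libraries highest without overlap (4.76-fold, log2 -2.25, SE 0.0719, adjusted p = 1.49e-11). Over the list of 31, however, 13 genes were higher and 5 lower with shAKR1B1 (median 0.13), and the iron storage chain FTH1 was among the lower (3303 ± 118 against 4189.9 ± 175 CPM, 1.27-fold). Ferritin genes have processed copies in the genome that may share reads. Of 19 heat shock proteins 9 were lower and 1 higher (52.6% called, against 30.7% of all tested genes, median -0.16). The small heat shock protein HSPB8 was at 7.87, 8.93 and 9.35 CPM against 13.96, 15.8 and 14.998 CPM (1.71-fold, adjusted p = 6.24e-06). Of 30 genes of ATF4 and the unfolded protein response 11 were lower and 3 higher (46.7% called, median -0.076). SLC7A5, a subunit of a transporter of leucine and other amino acids, was the most abundant of those named, at 771, 859 and 993 CPM with shAKR1B1 and 1389.9, 1859 and 1698 CPM with shSORD (log2 -0.92, SE 0.0955, adjusted p = 3.8e-06). Asparagine synthetase (ASNS) was at 53.6 ± 2.78 and 53.9 ± 8.56 CPM and was not called (adjusted p = 0.95).

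Interferon-stimulated genes, the antiviral set that interferons induce, were lower with shAKR1B1 in 14 of 31 cases and higher in 4 (median log2 difference -0.29, and -0.16 without shSORD replicate 3). The core letters of the interferon response element, GAAANNGAAA, were found on either strand in the 250 bases before the start of 19 of 28 list genes with a RefSeq promoter (67.9%) and of 1014 of 27305 genes (3.71%), with the same limits as for the CArG box. Stretches of 3 members called lower with shAKR1B1 are shown with these letters in capitals, at chr1:1013365-1013424 (plus strand, ISG15), chr7:93118081-93118140 (minus, SAMD9) and chr2:162318685-162318730 (minus, IFIH1) of GRCh38.p14.
ISG15: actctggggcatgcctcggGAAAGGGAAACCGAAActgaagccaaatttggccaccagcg
SAMD9: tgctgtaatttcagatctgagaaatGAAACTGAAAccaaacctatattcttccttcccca
IFIH1: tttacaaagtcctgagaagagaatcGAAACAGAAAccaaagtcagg

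ISG15, a ubiquitin-like modifier, was at 1.29, 1.48 and 1.69 CPM with shAKR1B1, 3.19, 3.95 and 2.63 CPM with shSORD and 3.18, 2.47 and 3.46 CPM in the control, so that shAKR1B1 was low and shSORD overlapped the control (2.17-fold, log2 SE 0.184, adjusted p = 0.000278). SAMD9, an antiviral restriction factor, was at 4.07, 3.50 and 4.62 CPM against 7.59, 5.44 and 9.15 CPM, and there shAKR1B1 overlapped the control (3.18, 4.19 and 3.995 CPM) while shSORD was high. For the RNA sensor IFIH1 (MDA5) shSORD was also the high group (2.89 ± 0.275, 4.21 ± 0.185 and 2.37 ± 0.190 CPM). OAS1, which activates RNase L, was higher with shAKR1B1 (66.6 ± 2.45 against 46.7 ± 1.42 CPM, adjusted p = 6.79e-06). ISG20, an exonuclease whose promoter holds the letters too, was also higher (18.1 ± 1.62 against 12.999 ± 2.19 CPM, adjusted p = 0.00507). The 3 genes with stretches shown thus shared these letters but not 1 order of the groups.

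**Figure D3:**
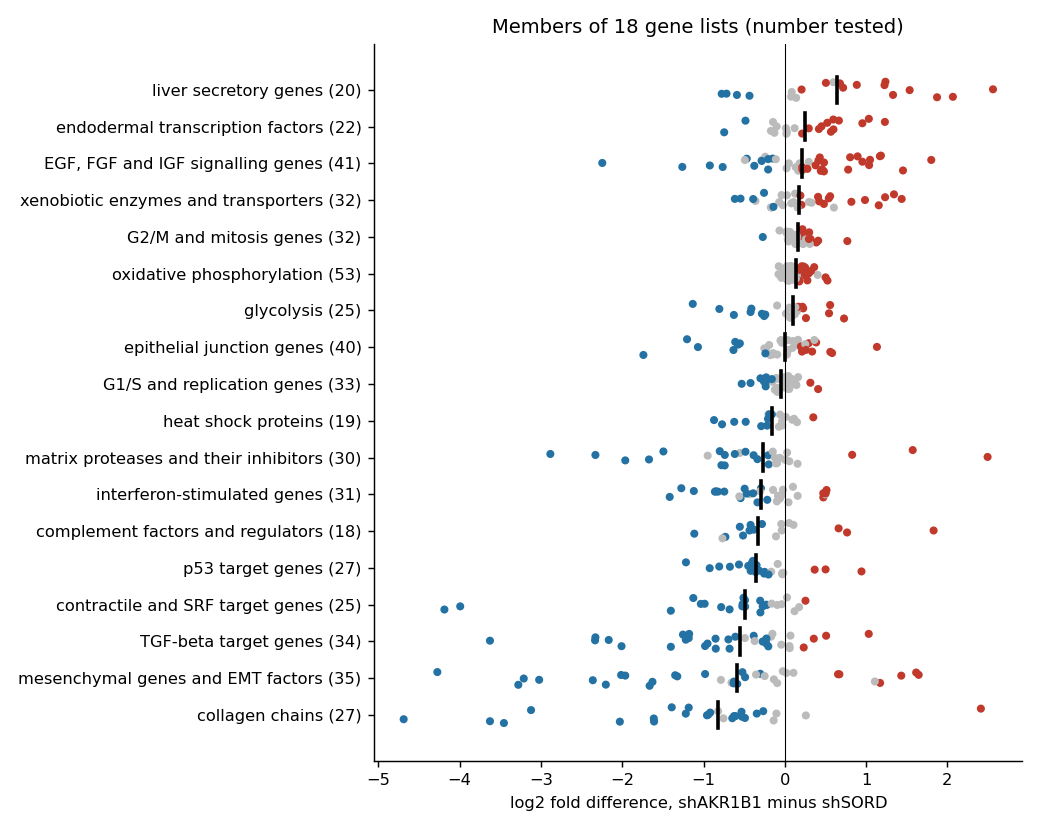
Each row is 1 of 18 gene lists with its number of tested genes, each point a member placed by its log2 fold difference, shAKR1B1 minus shSORD (red called higher, blue called lower, grey not called), and the black bar the median. Collagen chains have the lowest median of these lists, -0.82, and liver secretory genes the highest, 0.64.

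Liver secretory genes were more often higher than lower with shAKR1B1. Of 36 liver secretory genes 16 were below the filter, and of the 20 measured 12 were higher and 4 lower than with shSORD (7 at least 2-fold higher, median log2 difference 0.64). Against the control 18 rose with shAKR1B1 (27.8% of all tested genes rose), and 14 of these rose with shSORD as well (27.5%). Alpha-1 antitrypsin (SERPINA1) was at 7.01, 7.67 and 6.01 CPM with shAKR1B1, 1.76, 1.68 and 1.48 CPM with shSORD and 1.05, 0.955 and 1.17 CPM in the control, without overlap (4.19-fold between the knockdowns, log2 SE 0.134, adjusted p = 2.81e-08). The hepatic asialoglycoprotein receptor ASGR1 was 3.66-fold higher (4.49 ± 0.0495 against 1.22 ± 0.161 CPM), the retinol carrier RBP4 2.90-fold (11.1 ± 0.602 against 3.83 ± 0.984 CPM) and ITIH2, a hyaluronan-binding inhibitor, 2.52-fold (all adjusted p at or below 6.7e-07). Of 18 complement genes 8 were lower with shAKR1B1 and 3 higher. The proteases C1R and C1S, which start the classical complement cascade, were 2.16-fold and 1.43-fold lower, each with shAKR1B1 below and shSORD above the control. TFPI, which inhibits the start of coagulation, was at 180.01, 148 and 158 CPM against 70.7, 41.8 and 62.3 CPM. Thrombomodulin (THBD), an anticoagulant receptor, was 2.35-fold lower, and the coagulation list had 7 genes higher and 5 lower of 17.

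Transcription factors that direct gut, liver and lung differentiation followed in part. Of 22 such factors 12 were higher and 2 lower with shAKR1B1 (median 0.25). FOXA1, a factor that opens chromatin in endodermal tissues, was at 49.7, 50.3 and 49.2 CPM with shAKR1B1, 23.4, 19.1 and 20.99 CPM with shSORD and 13.8, 11.8 and 13.003 CPM in the control. The groups did not overlap, and shSORD lay between (2.35-fold between the knockdowns, log2 SE 0.0782, adjusted p = 2.25e-08). HNF4G (8.48 ± 0.556 against 4.38 ± 0.462 CPM) and SOX2 (4.39 ± 0.422 against 2.78 ± 0.201 CPM) had the same order. HNF4A, a central liver and gut factor, rose to a like level in both knockdowns, 92.6, 92.6 and 97.04 CPM and 87.95, 89.7 and 81.96 CPM from 34.6 ± 0.819 CPM, and was not called between them (log2 0.12, SE 0.055, adjusted p = 0.112). Without shSORD replicate 2 it was called (0.15, adjusted p = 0.0492). KLF4 was among the lower, at 9.18 ± 0.513 against 15.4 ± 0.939 CPM.

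Mucins and CEACAM adhesion molecules split evenly, 5 higher and 5 lower of 14, with large single differences. The gel-forming mucin MUC5AC was at 1381, 1355 and 1380 CPM with shAKR1B1, 306, 244 and 204 CPM with shSORD and 170.2, 175 and 173 CPM in the control (5.46-fold, log2 2.45, SE 0.103, adjusted p = 3.62e-10). MUC5B, the other main airway mucin, was at 421, 431 and 407 CPM, 106, 76.4 and 59.9 CPM and 285, 268 and 277 CPM in the same order of groups. For MUC5AC both knockdowns lay above the control, whereas for MUC5B shSORD lay below it. The surface mucin MUC16 was 3.26-fold higher with shAKR1B1 (59.1 ± 8.88 against 18.1 ± 4.81 CPM), while the intestinal mucin MUC3A was 2.04-fold and CEACAM5 1.88-fold lower. Neighbouring mucin genes and CEACAM paralogs resemble each other, and how the counting treated such reads is not given in the sources used here. AGR2, a disulfide isomerase needed for mucin folding, was 2.52-fold higher (736 ± 46.6 against 292 ± 34.9 CPM, adjusted p = 6.21e-09).

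Enzymes of retinoid, alcohol and aldehyde metabolism were higher with shAKR1B1 in 10 of 29 cases and lower in 2. That is 41.4% called, against 30.7% of all tested genes, with a median log2 difference of 0.088. Xenobiotic enzymes and transporters were higher in 13 of 32 cases and lower in 5 (56.2% called, median 0.17). ALDH3A1, an aldehyde dehydrogenase of cornea and of A549 cells, was at 1917, 2049 and 2047 CPM with shAKR1B1, 950.3, 992 and 788 CPM with shSORD and 2027, 1927 and 1922 CPM in the control. Here shAKR1B1 overlapped the control and shSORD was lower than both (2.20-fold, log2 1.14, SE 0.0711, adjusted p = 1.88e-08). ALDH1A1, which makes retinoic acid and was more abundant in CPM, was at 10389 ± 282 and 9774 ± 345 CPM and was not called (adjusted p = 0.15). The alcohol dehydrogenase ADH6 was 3.01-fold higher with shAKR1B1, the drug efflux pump ABCB1 2.35-fold and the cytochrome CYP3A5 2.23-fold (all adjusted p at or below 2.65e-06). UGT1A6 was 1.98-fold higher, but it shares its last exons with the other UGT1A genes.

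Growth factor signalling through EGF and FGF receptors activates the kinase ERK, which induces its own inhibitors. Of 41 measured genes of EGF, FGF and IGF signalling 20 were higher and 10 lower with shAKR1B1 (median 0.22). TGFA, a ligand of the EGF receptor, was at 14.98, 14.5 and 14.3 CPM with shAKR1B1, 4.07, 3.85 and 4.61 CPM with shSORD and 12.6, 12.7 and 13.5 CPM in the control (3.49-fold, log2 1.80, SE 0.0866, adjusted p = 1.57e-09). No groups overlapped, and shSORD lay far below the others. Among the known ERK-induced genes, the phosphatase DUSP6 was at 16.2, 14.3 and 14.01 CPM, 8.70, 6.80 and 5.99 CPM and 8.84, 9.68 and 10.03 CPM, with shAKR1B1 highest and shSORD lowest (2.07-fold, adjusted p = 6.37e-06). The inhibitors SPRY1 and SPRY2 were 2.74-fold and 1.94-fold higher, and the transcription factors ETV4 and ETV5 2.25-fold and 2.05-fold. DUSP6, SPRY2, ETV4 and ETV5 each rose with shAKR1B1 and fell with shSORD against the control. The EGF receptor itself (EGFR) had the opposite order (195 ± 4.10, 270.3 ± 8.07 and 237 ± 2.16 CPM, adjusted p = 2.67e-06 between the knockdowns). The IGF-binding protein IGFBP7, secreted into the matrix, was at 9.83, 9.03 and 9.93 CPM with shAKR1B1 and 43.2, 47.01 and 46.2 CPM with shSORD, on both sides of 20.8, 20.5 and 20.6 CPM in the control (4.74-fold, log2 SE 0.0687, adjusted p = 1.43e-11). IGFBP3, the main carrier of IGF in blood, had the reverse order to IGFBP7 (975 ± 19.98, 750.2 ± 22.5 and 888 ± 10.03 CPM), as had the insulin receptor substrate IRS2 (98.4 ± 2.001, 56.3 ± 5.64 and 74.1 ± 0.982 CPM). KLB, the co-receptor beta-klotho, rose with both hairpins and was 2.40-fold lower with shAKR1B1.

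Secreted signals of inflammation and Wnt pathway genes went in both directions. Of 24 cytokine and NF-kappaB genes 7 were higher and 5 lower. The neutrophil chemokine CXCL5 was at 254, 235 and 249 CPM against 128, 108 and 116 CPM, with the control between at 211 ± 3.31 CPM (2.10-fold, adjusted p = 7.78e-09). CXCL1 was 2.04-fold and CCL20 2.08-fold higher with shAKR1B1. CXCL1 fell with both hairpins (28.9 ± 0.702, 14.2 ± 1.44 and 52.1 ± 0.627 CPM with shAKR1B1, shSORD and control). CCL20 had the control between the knockdowns (8.70 ± 0.237, 4.18 ± 0.488 and 5.97 ± 0.525 CPM). Wnt and hedgehog genes stood at 9 higher and 9 lower of 38. The ligand WNT5A was 3.07-fold higher with shAKR1B1 (2.999 ± 0.210 against 0.980 ± 0.198 CPM) and WNT9A 2.36-fold lower. WNT5A was nevertheless below the control (6.27 ± 0.299 CPM) in both knockdowns. HHIP, which binds and inhibits hedgehog ligands, was at 1.29, 1.60 and 1.44 CPM with shAKR1B1. With shSORD it was at 0.0777, 0.0975 and 0.0752 CPM and rested on 3 or 4 counts per library. Both groups lay under the control (2.62, 2.78 and 2.47 CPM). Of 43 axon guidance and teneurin genes 13 were higher and 19 lower.

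The glucose transporters SLC2A1 and SLC2A3 were lower with shAKR1B1 than with shSORD, and genes of oxidative phosphorylation that differed between the knockdowns were higher. SLC2A1 (GLUT1) was at 138, 144 and 157 CPM with shAKR1B1, 240.5, 275 and 252 CPM with shSORD and 242, 231 and 234 CPM in the control, and SLC2A3 (GLUT3) at 66.4, 69.3 and 69.3 CPM, 141, 148 and 159.8 CPM and 70.003, 69.3 and 67.3 CPM. The first was low with shAKR1B1 and the second high with shSORD, so that both were lower with shAKR1B1 (1.75-fold and 2.19-fold, adjusted p = 1.77e-07 and 2.17e-09). The glycolysis list, which holds both, had 7 higher and 8 lower of 25. Phosphoglycerate kinase PGK1 was among the lower (606 ± 33.9 against 936 ± 55.1 CPM). Of 53 nuclear genes of oxidative phosphorylation 22 were higher and 0 lower with shAKR1B1 than with shSORD, with a median log2 difference of 0.14. That is 41.5% called, against 30.7% of all tested genes. Against the control, 7 rose and 18 fell with shAKR1B1 (27.8% and 29.6% of all tested genes). With shSORD, 1 rose and 29 fell (27.5% and 29%). The ATP synthase subunit ATP5MC1 was at 138, 145 and 163 CPM against 94.3, 110.3 and 105 CPM (1.44-fold, adjusted p = 4.49e-05) and fell with both hairpins from 182 ± 6.48 CPM. NDUFV2, of complex I, and SDHD, of complex II, lay near the threshold (adjusted p = 0.0298 and 0.0466). Those calls were lost without shSORD replicate 2 (log2 differences 0.35 and 0.21) and without other single libraries. Both were also lost when only the 6 knockdown libraries were fitted (adjusted p = 0.0533 and 0.0766), and SDHD without scaling (adjusted p = 0.0569). The SDHD libraries of the knockdowns overlapped.

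In the hypoxia list 10 were higher and 4 lower of 25. Carbonic anhydrase CA9, a target of hypoxia-inducible factor that regulates pH, was 2.23-fold higher with shAKR1B1 (16.5 ± 0.955 against 7.40 ± 0.389 CPM), and the secreted stanniocalcin STC1 2.14-fold lower. Of 30 genes of the TCA cycle and glutamine metabolism 5 were higher and 4 lower, which at 30% is near the 30.7% of all tested genes, and of 23 fatty acid synthesis genes 1 and 9. Genes of mitosis were higher with shAKR1B1 than with shSORD in 12 of 32 cases and lower in 1. That is 40.6% called, against 30.7% of all tested genes, with a median log2 difference of 0.16. Against the control, 2 rose and 13 fell with shAKR1B1 (27.8% and 29.6% of all tested genes). With shSORD, 2 rose and 22 fell (27.5% and 29%). UBE2C, which marks mitotic proteins for degradation, was at 100.3, 99.4 and 107 CPM with shAKR1B1, 53.6, 66.2 and 59.9 CPM with shSORD and 136, 135 and 139 CPM in the control (1.70-fold, log2 SE 0.0686, adjusted p = 7.33e-07). Both groups were below the control, with shSORD lowest. The proliferation marker MKI67 was 1.16-fold higher (817 ± 7.63 against 703 ± 55.3 CPM, adjusted p = 0.0116), a call lost without shSORD replicate 1 (log2 0.15).

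Most epithelial junction genes rose and most replication genes fell against the control with either hairpin. Of 40 epithelial junction genes 31 rose with shAKR1B1 (27.8% of all tested genes) and 33 with shSORD (27.5%), against the same control libraries. Between the knockdowns 9 were higher and 8 lower (42.5% called, against 30.7% of all), with a median of 0.0030. E-cadherin (CDH1) was at 316, 299.7 and 286 CPM with shAKR1B1, 338, 306 and 291 CPM with shSORD and 138, 146 and 139.5 CPM in the control. The knockdown libraries overlapped (log2 -0.053, SE 0.0604, adjusted p = 0.548), and all lay above the control. Tight junction genes were among those that differed. Claudin CLDN2 was 2.19-fold higher and CLDN4 2.10-fold lower with shAKR1B1. Of 33 genes of the G1/S transition and DNA replication 32 fell with shAKR1B1 (29.6% of all tested genes) and 31 with shSORD (29%). Between the knockdowns 2 were higher and 8 lower, and 30.3% called is near the share of all genes. Cholesterol synthesis had 3 higher and 2 lower of 25 (20% called), and the airway and alveolar list 3 and 4 of 14 (50%) with 15 more below the filter.

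A set of 310 genes lay on opposite sides of the control, that is, they were called against the control in opposite directions and called between the knockdowns. In 127 of them (0.751% of tested genes) shAKR1B1 was above and shSORD below, and in 183 (1.08%) the reverse. All 9 libraries were separated by group in 121 and 167 of these. At least 2-fold between the knockdowns were 46 and 92, and at least 1.5-fold from the control on both sides 16 and 37. These counts moved with single libraries. The first was 84 without control replicate 3 and 203 without shSORD replicate 3, and the second was 119 without control replicate 1, 111 without control replicate 2 and 234 without shSORD replicate 3. Both calls against the control use the same 3 control libraries.

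With shAKR1B1 above and shSORD below, the 8 genes with the largest value of the smaller change, among protein-coding genes averaging 50 or more counts with no overlap of the 3 groups, were MUC5B, MRAP2, MAOA, AQP3, SYT6, LRATD2, ETV4 and CST1. AQP3, a channel for water and glycerol, was at 118, 117 and 105 CPM with shAKR1B1, 32.6, 24.9 and 21.7 CPM with shSORD and 65.03, 57.4 and 62.04 CPM in the control (4.29-fold between the knockdowns, log2 SE 0.111, adjusted p = 3.84e-09). Monoamine oxidase A (MAOA), which degrades serotonin and noradrenaline, was at 13.2, 11.7 and 11.6 CPM, 3.37, 2.41 and 2.51 CPM and 7.01, 7.05 and 6.92 CPM. In both genes the 3 groups were apart from each other. MRAP2, an accessory protein of melanocortin receptors, was 4.41-fold and the synaptotagmin SYT6 3.28-fold higher with shAKR1B1.

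The genes chosen in the same way for the reverse order included NPTX1, IGFN1, IGFBP7, NPR1, CCN5, COL1A1 and CDH11. IGFN1, a protein with immunoglobulin and fibronectin domains known from muscle, was at 4.44, 5.13 and 4.69 CPM with shAKR1B1, 49.5, 51.5 and 44.4 CPM with shSORD and 24.1, 23.5 and 24.6 CPM in the control (10.2-fold, log2 -3.35, SE 0.0835, adjusted p = 3.77e-12). CCN5, a matricellular protein, was at 10.5, 9.84 and 10.7 CPM, 38.9, 45.1 and 39.9 CPM and 23.7, 20.1 and 21.3 CPM. Here too no libraries of different groups overlapped. The cadherin CDH11, an adhesion molecule of osteoblasts and mesenchyme, was 3.09-fold lower with shAKR1B1. All 15 genes named for either order stayed on opposite sides in each of the 15 alternatives that hold control libraries.

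**Figure D4:**
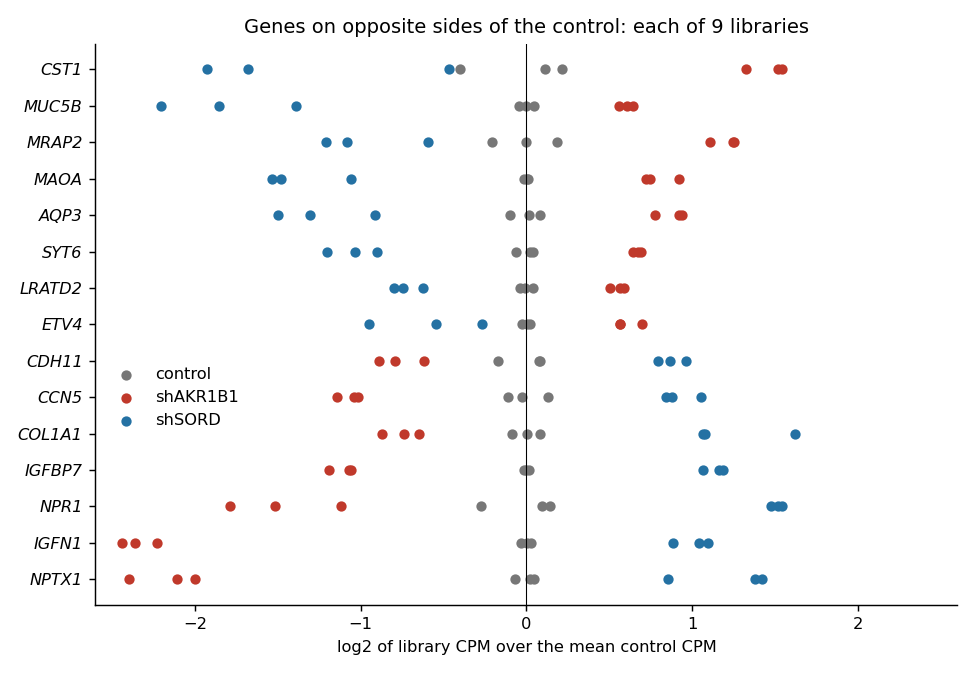
For 15 genes on opposite sides of the control, each point is 1 library, placed by the log2 of its CPM over the mean control CPM, in grey for control, red for shAKR1B1 and blue for shSORD. In the upper 8 genes the red points lie to the right and the blue to the left of the grey points, and in the lower 7 the order is reversed.

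In absolute CPM, the largest gains with shAKR1B1 over shSORD were in AKR1B10, FN1, MUC5AC, ALDH3A1 and the ferritin light chain FTL (8773 ± 494 against 7715 ± 516 CPM, adjusted p = 0.0234). The FTL call was lost without shSORD replicate 3 (log2 0.13), shAKR1B1 replicate 2 or shAKR1B1 replicate 3. It was also lost when only the 6 knockdown libraries were fitted (adjusted p = 0.0615). The largest losses were in AKR1B1, FTH1, FLNA, TGFBI and SLC7A5. Some long non-coding RNAs, chosen after their values were seen, also differed. MEG3, an imprinted RNA, was at 7.11, 7.99 and 7.73 CPM with shAKR1B1, 26.3, 28.4 and 26.5 CPM with shSORD and 6.49, 6.55 and 6.85 CPM in the control (3.55-fold, adjusted p = 3.06e-10). The shSORD libraries lay far above both other groups. NEAT1 and MALAT1, abundant nuclear RNAs, rose with both hairpins and were 1.29-fold and 1.52-fold higher with shAKR1B1 (adjusted p = 0.000224 and 0.000118).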

How the data were processed

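RNA was sequenced in 9 libraries of A549 cells, 3 each of control, shAKR1B1 and shSORD, with a strand-marking poly(A) kit, per the labels' protocols. The deposited table gives the authors' raw, unscaled counts for each Ensembl gene ID. The submitters' processing notes list GRCh37, DESeq2 1.12.3, Subread's featureCounts 1.5.1, STAR 2.5.2b and cutadapt 1.9.1. The sources used here give no annotation release, strand setting or treatment of reads with several matches, so values of paralogs, overlapping genes and antisense pairs are uncertain.

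Counts were fitted with edgeR 4.0.16 in R 4.3.3 (TMM scaling, default expression filter by group, quasi-likelihood test, 1 mean per group over all 9 libraries, Benjamini-Hochberg adjustment over all 16916 genes within each comparison). The common biological coefficient of variation was 6.59%. Adjusted p-values of genes come from this test, with n = 3 libraries per group, and errors after ± are SDs. SEs are the absolute log2 difference divided by the square root of F, and fitted values used a prior count of 0.125. The fit was tested on simulated data in which all groups shared 1 spread. That test cannot speak to the wider spread of the shSORD libraries. Symbols matched 51996 and gene types (GENCODE 29) 52338 of the 57905 IDs. Of 1168 entries in 39 lists, 5 matched no single ID, among them MMP28, HSPB11, DDX58 and CCL5. The members and lists were chosen with earlier results of these data known.

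Named genes were AKR1B1, SORD, AKR1B10, the 12 largest log2 differences each way among called protein-coding genes averaging 50 or more counts in the knockdown libraries without overlap, the 5 largest CPM differences each way, the 8 most opposite genes each way (by the smaller log2 change against the control, under the same conditions) and up to 4 leading genes per list. Another 36 genes are named for their known role or their values. Promoters were searched for 9 motifs. Beside those in the report they were, for TGF-beta targets, CAGACA (7 of 30 genes against 16.3% of all), GTCTAGAC (0 of 30 against 0.231%) and TGANTCA (3 of 30 against 8.06%), GAANNTTC for heat shock proteins (11 of 19 against 7.05%), TGACNNNGC for NRF2 targets (8 of 23 against 13.2%) and the p53 half-site for p53 targets (5 of 21 against 6.8%). Some named genes and 1 motif are not reported here. The sets shown were chosen after these matches were seen.

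Alternatives were RLE or no scaling, no filter or at least 10 counts in every library of a group, DESeq2 1.42.0, the replicate number as a block, each library left out, only the 6 knockdown libraries and, added after the data were seen, those 6 with the block. Between the knockdowns, libraries of the same number deviated together from their group means (correlations 0.102, 0.193 and 0.144 over genes), which is the source of the pairing, since the labels give only numbers. Against the control these correlations were -0.0285 to 0.0314. No pair of libraries agreed within sampling noise.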

Additional observations from a re-analysis of the deposited data

How the results depend on the processing

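Of 3502 values of 206 named genes under the alternatives, 3463 kept their direction and their side of the threshold, 28 (in CENPE, FBLN1, FHL2, FTL, ITGAM, MKI67, NDUFV2 and SDHD) no longer passed and 3 (HNF4A, KHK and MDM2) newly passed. No called value changed sign. Among genes not called, the log2 difference changed sign without 1 library, with ranges of -0.12 to 0.10 for ASNS, -0.10 to 0.00766 for CDH1, -0.20 to 0.00859 for MDM2, -0.14 to 0.0633 for TGFB1 and -0.0926 to 0.0548 for ZEB1. The counts of genes higher and lower with shAKR1B1 stayed within 1.5 times under every alternative. With the replicate block they were 2944 and 2699 in place of 2628 and 2558, and the block changed no call of these 206 genes. With 1 library left out they ranged from 1934 to 3566 and from 1906 to 3165. Counts on opposite sides of the control ranged from 84 to 203 (shAKR1B1 above) and from 111 to 234 (shSORD above).

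Several list medians moved, and the cause was not tested. With no expression filter, which adds scarce genes, they were -0.0602 for airway, 0.0504 for axon guidance, 0.36 for endodermal factors, -1.42 for fibroblast markers, -0.21 for matrix proteases and 0.0131 for TGF-beta ligands and receptors. Matrix proteases were at -0.34 with at least 10 counts in every library of a group, fatty acid synthesis at -0.15 without scaling, and Wnt and hedgehog genes at 0.0124 with the 6 knockdown libraries and 0.0164 with these and the block. With 1 library left out, medians ranged from -0.98 to -0.67 for collagens, -0.37 to -0.31 for p53 targets, -0.29 to -0.16 for interferon-stimulated genes, -0.33 to -0.22 for matrix proteases, -0.17 to -0.10 for laminins and integrins, -0.17 to -0.10 for fatty acid synthesis, -0.14 to -0.0727 for ATF4 genes, -0.0941 to -0.0450 for axon guidance, -0.0485 to 0.0150 for TGF-beta ligands and receptors, -0.13 to 0.0162 for Wnt and hedgehog genes, -0.0759 to 0.0173 for epithelial junctions and 0.0832 to 0.16 for NRF2 targets. Where 1 library of a group was left out, the other 2 carried its mean and the spread was shared over groups. Genes with few counts per library, such as COL1A2 and HHIP, have uncertain folds.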
